A study of Mus musculus with 3 samples.

Results

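Cathepsins are the proteases of endosomes and lysosomes, and the 10 genes described here are 8 cathepsins (Ctsb, Ctsc, Ctsd, Ctsh, Ctsk, Ctsl, Ctss and Ctsz), the related lysosomal protease legumain (Lgmn) and their secreted inhibitor cystatin C (Cst3). They were taken by symbol, as all probe sets that the platform annotation gives exactly 1 gene symbol equal to one of these names. This yielded 20 probe sets of the 45101 on the array, and 10 genes of 18194. All 10 genes and all 20 probe sets reached the level used here for a measured gene, an intensity of 78.9 on at least 1 array, as did 12300 genes in all.

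The cells were mouse bone marrow-derived dendritic cells, grown from the marrow of female mice aged 6 weeks with 20 ng/mL GM-CSF and harvested as nonadherent cells on day 7. They were kept for 24 h with PTX at 100 ng/mL, with 1 µg/mL LPS (lipopolysaccharide, which Toll-like receptor 4 detects), or with PBS. PTX is not spelled out in the labels, and the abbreviation is kept. The strain label reads C57BL/7 for the PTX sample and C57BL/6 for the LPS and PBS samples, and no allele or transgene is named for any of them. Each of the 3 groups held 1 array, so no difference below has a replicate check or a test. Differences are described by size, as log2(intensity + 16) of one array minus that of the other, and are called at least 2-fold apart at a log2 difference of 1 or more. Whether the cultures shared a mouse or a marrow preparation is not in the labels, so animal and treatment cannot be told apart.

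Dendritic cells take up proteins into endosomes, where these proteases cut them into peptides for MHC class II molecules. The same enzymes degrade the invariant chain (Cd74), the chaperone that blocks the peptide groove of class II molecules, and cathepsin S carries out its last cuts in dendritic cells. Most cathepsins are cysteine proteases of the papain family, cathepsin D is an aspartic protease, and legumain cuts after asparagine. Cystatins block the papain-type enzymes, and cystatin C also binds legumain.

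The arrays differed in scale, which touches every value that involves LPS. The median intensity of the noncontrol probe sets was 86.9 for PTX, 65.3 for LPS and 85.7 for PBS. The 99th percentile was 5158, 6092 and 4793 in the same order of arrays, so the LPS array was dimmer at its middle and brighter at its top. The 10 genes are bright: for 8 of them the probe set used was at or above the 99th percentile of its array on all 3 arrays, and Ctsk and Lgmn are the other two. The 18 bacterial hybridization controls differed by a median of 0.20 on the log2 scale in LPS against PBS and by 0.01 in PTX against PBS.

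Upstream sequence is shown for 4 genes whose results stand out or whose promoter held a searched motif: Lgmn (by brightest probe sets the gene with the largest difference in PTX), Ctsd, Ctss, and Cst3 (the one with the largest difference in LPS). RefSeq promoters were matched for 8 of the 10 genes, with 9 transcription starts in all since Lgmn has more than 1, and Ctsb and Ctsh were not matched. Each line gives the 250 bases before a start, 5′ to 3′ on the gene's strand, from RefSeq on build GRCm38.p6. Lgmn is shown at the second start the table lists for it (chr12:102439093-102439342, minus strand), Ctsd at chr7:142387828-142388077 (minus strand), Ctss at chr3:95526536-95526785 (plus strand) and Cst3 at chr2:148875513-148875762 (minus strand). Capitals mark motif matches.
Lgmn: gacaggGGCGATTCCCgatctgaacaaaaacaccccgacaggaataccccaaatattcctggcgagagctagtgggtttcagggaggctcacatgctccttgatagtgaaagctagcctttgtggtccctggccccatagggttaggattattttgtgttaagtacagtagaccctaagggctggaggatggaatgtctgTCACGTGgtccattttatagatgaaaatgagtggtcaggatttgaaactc
Ctsd: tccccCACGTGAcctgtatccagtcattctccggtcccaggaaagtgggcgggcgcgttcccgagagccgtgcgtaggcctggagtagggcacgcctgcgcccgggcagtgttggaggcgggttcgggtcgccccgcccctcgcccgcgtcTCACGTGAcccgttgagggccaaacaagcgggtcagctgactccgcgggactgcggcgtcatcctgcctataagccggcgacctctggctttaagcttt
Ctss: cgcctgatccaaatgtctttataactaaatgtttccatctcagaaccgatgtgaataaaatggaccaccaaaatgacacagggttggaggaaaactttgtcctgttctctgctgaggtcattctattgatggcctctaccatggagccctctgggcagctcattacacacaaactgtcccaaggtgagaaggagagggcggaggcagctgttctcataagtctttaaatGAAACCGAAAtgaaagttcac
Cst3: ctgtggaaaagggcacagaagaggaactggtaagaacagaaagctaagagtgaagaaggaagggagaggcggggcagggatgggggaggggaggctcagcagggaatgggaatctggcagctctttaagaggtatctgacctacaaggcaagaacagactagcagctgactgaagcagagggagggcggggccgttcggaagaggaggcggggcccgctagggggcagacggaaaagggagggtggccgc

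Searched on both strands were the E-box CACGTG, the core of the CLEAR element through which Tfeb acts on lysosomal genes, the same box with a T before it (TCACGTG, which contains the first), the interferon-stimulated response element as GAAA, any 2 bases and GAAA, and an NF-kB site as GGGA, any 4 bases and CC. Over 32851 RefSeq promoters of the same length, 6.02% held the E-box, 3.13% the longer form, 2.98% the response element and 17.6% the NF-kB letters. Of the 9 starts, 3 held the E-box (Ctsd, Lgmn and Ctsl), and Ctsd and Lgmn held the longer form. The response element was found at 1 start (Ctss), 21 bases before it, and the NF-kB letters at 1 start (Lgmn). The E-box of Lgmn began 49 bases before the start shown, and Ctsd had E-boxes beginning 98 and 245 bases before its start. In the Cst3 window none of these letters were found. A match is a stretch of letters and was not tested for binding.

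Most of the 10 genes were modestly higher on both stimulated arrays than on the PBS array. With LPS against PBS, 9 genes of 10 had a positive log2 difference and the median was 0.61, beside 44.0% of all measured genes above 0 and a median of -0.08. Over all 20 probe sets 13 were above 0 in LPS, 4 at least 2-fold higher and 2 lower, beside 41.2% of all measured probe sets above 0, 6.23% higher and 16.3% lower. Of the 10, 1 was at least 2-fold higher (Cst3) and none was lower, where 6.50% of measured genes were at least 2-fold higher and 13.0% lower. With PTX against PBS, all 10 genes were above 0, with a median of 0.47, beside 50.7% of all measured genes and a median of 0.01. Again 1 of the 10 was at least 2-fold higher (Lgmn) and none was lower, where 3.04% of measured genes were higher and 2.37% lower. Both comparisons share the PBS array, so a low reading of a gene there would appear in both. In PTX all 20 probe sets were above 0 and 4 were at least 2-fold higher, beside 50.7% and 2.76% of all measured probe sets.

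**Figure D1:**
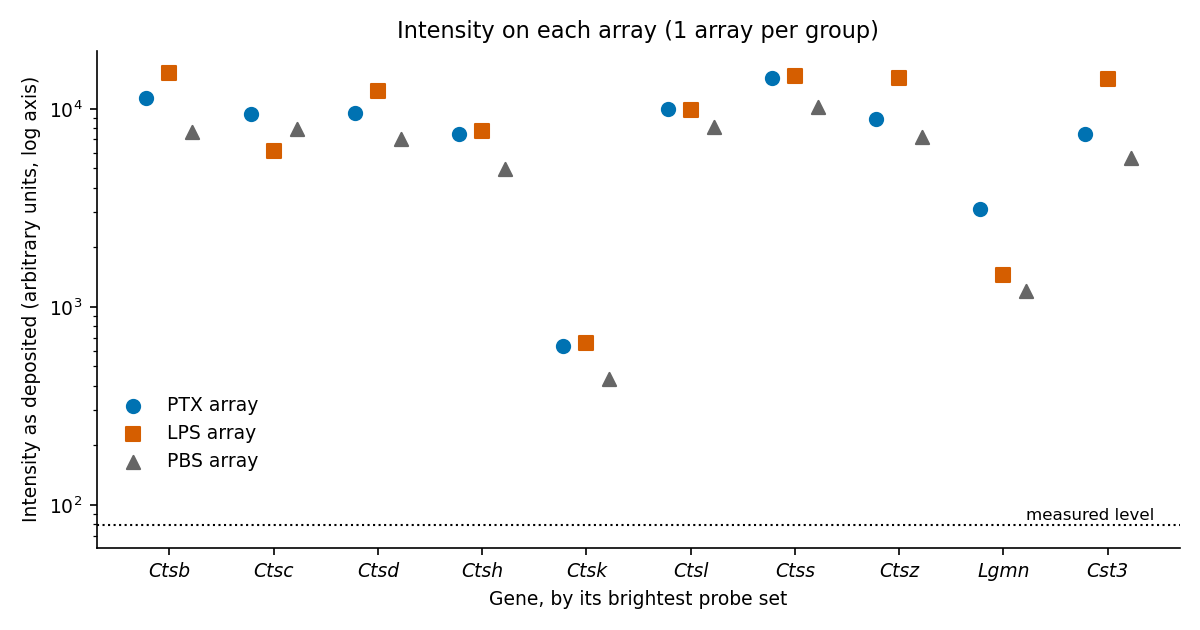
Intensity as deposited (log axis) of the brightest probe set of each of the 10 genes on the PTX, LPS and PBS arrays, 1 point per array. The PBS point is the lowest for every gene except Ctsc, whose LPS point is lowest, Cst3, Ctsb and Ctsz are highest on the LPS array, and Lgmn is highest on the PTX array.

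Cystatin C is the inhibitor among the 10. Cst3 read 7435 with PTX, 14172 with LPS and 5663 with PBS. The LPS reading thus stood well above the other two, with a log2 difference of 1.32 against PBS (2.50-fold), while PTX against PBS was 0.39 and PTX against LPS was -0.93. The gene has 1 probe set, so no second reading was available. Under quantile normalization, which gives all arrays 1 distribution, the LPS difference was 0.84 and no longer 2-fold, and it lay between 0.84 and 1.64 over the settings tried.

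Legumain, which cuts after asparagine and takes part in maturing other lysosomal proteases, had the opposite order of the stimuli. Lgmn read 3120 with PTX, 1453 with LPS and 1202 with PBS. The PTX array alone was high, with a log2 difference of 1.36 against PBS (2.58-fold) and 1.09 against LPS (2.13-fold), and LPS against PBS was 0.27. The PTX difference from PBS stayed between 1.30 and 1.38 over all 11 settings, whereas PTX against LPS was 0.75 with median centring and 0.78 with 75th percentile scaling, both under 2-fold. Lgmn also has only 1 probe set, so the other probe set rules and filters among these settings could not change its values. By brightest probe sets and with the values as deposited its span over the 3 arrays was 1.36, beside 1.32 for Cst3, and the 3 measured genes with the most similar pair of differences from PBS were Gbp8, a guanylate-binding protein (0.33 in LPS, 1.34 in PTX), Dck, deoxycytidine kinase (0.23 and 1.44), and Klra2, a lectin-like receptor (0.30 and 1.29). Their distances from Lgmn in log2 units were 0.062, 0.080 and 0.083, and 18 genes lay within 0.2. This likeness rests on 3 arrays.

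Cathepsin S, the main protease of the last steps of invariant chain degradation in dendritic cells, read nearly the same in both stimulated cultures as deposited. Ctss read 14356 with PTX, 14712 with LPS and 10212 with PBS, log2 differences from PBS of 0.49 in PTX and 0.53 in LPS. With quantile normalization the LPS difference was 0.04 and the PTX difference 0.42. Cathepsin L, which does the corresponding step in the thymic epithelium of mice, differed less: Ctsl read 9995, 9866 and 8098 on the PTX, LPS and PBS arrays by its brightest probe set (0.30 in PTX and 0.28 in LPS). The dimmer probe set of Ctsl read 302 with PTX, 116 with LPS and 172 with PBS, or 0.76 in PTX and -0.51 in LPS. The direction of Ctsl in LPS therefore depends on the probe set, and it also turned to -0.13 with quantile normalization.

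Cathepsin B, a cysteine protease that cuts inside proteins and trims their ends, has 5 probe sets, and they gave different orders of the arrays. The brightest, 1417490_at, read 11393 with PTX, 15102 with LPS and 7616 with PBS. The next, 1448732_at, read 6567, 13068 and 3296 in the same order. Both placed LPS highest, with LPS against PBS at 0.99 and 1.98 and PTX against PBS at 0.58 and 0.99. The probe set 1417492_at read 3405 with PTX, 975 with LPS and 1028 with PBS. For 1417491_at the readings were 1464, 463 and 502, and for 1444987_at they were 682, 63.8 and 137. All 3 placed PTX highest, at 1.71, 1.52 and 2.19 against PBS, with LPS at or below PBS (-0.08, -0.11 and -0.94).

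All 5 Ctsb probe sets were thus above PBS in PTX, 3 of them at least 2-fold, while in LPS they ran between -0.94 and 1.98. Between PTX and LPS they ran between -0.99 and 3.13, a span of 4.12. Of the 5521 genes with several measured probe sets, 0.942% had a span at least that wide, and the median span was 0.78. In PTX against PBS the Ctsb span was 1.61, reached by 1.27% of these genes, and in LPS against PBS it was 2.92, reached by 3.59%. The platform annotation traces 4 of the 5 probe sets to 1 source sequence, and this group holds both patterns. Where the probe sets lie along the transcript is not given in the sources used here, so a difference between transcript forms and one between probe sets cannot be told apart. A single number for Ctsb depends on the rule: its brightest probe set gave 0.58 in PTX against PBS, and the mean over its probe sets gave 1.40.

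**Figure D2:**
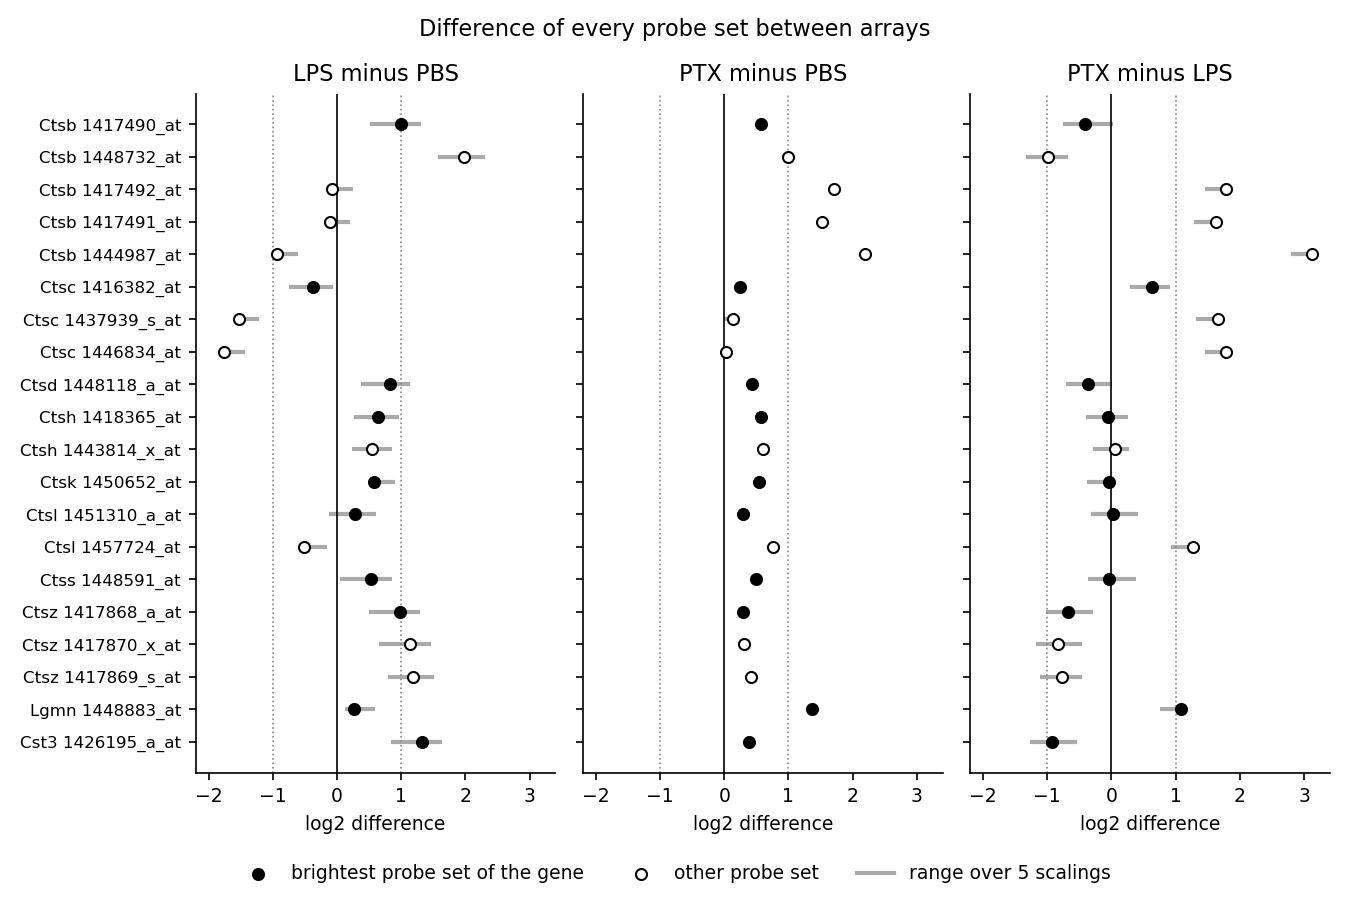
The log2(intensity + 16) difference of each of the 20 probe sets between arrays, for LPS minus PBS, PTX minus PBS and PTX minus LPS. Filled points are the brightest probe set of a gene, open points its others, grey lines the range over 5 scalings of the arrays and dotted lines 2-fold. The 5 Ctsb probe sets spread on both sides of 0 in LPS and all lie above 0 in PTX, and the dimmer Ctsc probe sets lie furthest below 0 in LPS.

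Cathepsin C, also called dipeptidyl peptidase I, removes dipeptides and activates the granule serine proteases of neutrophils, mast cells and cytotoxic lymphocytes. With the values as deposited it was the only one of the 10 whose brightest probe set was lower in LPS than in PBS. Ctsc read 9440 with PTX, 6098 with LPS and 7923 with PBS, which is 0.25 in PTX and -0.38 in LPS. The LPS difference kept its sign over all 11 settings, between -1.22 and -0.06. The probe set 1437939_s_at read 1869, 581 and 1709 on the PTX, LPS and PBS arrays, and 1446834_at read 403, 105 and 394. Both were at least 2-fold lower in LPS (-1.53 and -1.76) and near the PBS level in PTX (0.13 and 0.03). All 3 probe sets agreed in direction and differed in size.

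Cathepsin Z, also called cathepsin X, is a carboxypeptidase that removes residues from protein ends. Its 3 probe sets gave close readings, with Ctsz at 8855, 7724 and 6597 on the PTX array, 14245, 13764 and 11253 on the LPS array, and 7234, 6232 and 4920 on the PBS array. LPS stood highest in each, with differences from PBS of 0.98, 1.14 and 1.19, so the brightest probe set was just under 2-fold and the other two passed it. PTX against PBS was 0.29, 0.31 and 0.42. The suffixes of all 3 probe sets mark them as able to match several transcripts or sharing probes, so they are not independent readings. Quantile normalization gave 0.50, 0.66 and 0.79 in LPS.

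Cathepsin D, the aspartic protease, read 9521 with PTX, 12346 with LPS and 7004 with PBS. Ctsd thus differed from PBS by 0.44 in PTX and 0.82 in LPS, with 1.14 in LPS under median centring and 0.38 under quantile normalization. Cathepsin H is an aminopeptidase, and its 2 probe sets agreed. Ctsh read 7435 and 4032 on the PTX array, 7754 and 3871 on the LPS array, and 4959 and 2655 on the PBS array, which is 0.58 and 0.60 in PTX and 0.64 and 0.54 in LPS. Cathepsin K, the collagen-degrading enzyme of osteoclasts, read 636, 653 and 432 on the PTX, LPS and PBS arrays. Ctsk differed from PBS by 0.54 in PTX and 0.58 in LPS, and its LPS difference was 0.71 with quantile normalization.

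PTX and LPS were also set against each other, the comparison the series title names. Here the 10 genes had a median of -0.05, beside 0.09 for all measured genes, with 3 of 10 above 0 against 56.5% of all. Only Lgmn was at least 2-fold higher in PTX, and none was at least 2-fold lower, where 13.7% of measured genes were higher and 6.23% lower. With median centring none of the 10 was 2-fold higher and 2 were lower, Cst3 (-1.27) and Ctsz (-1.02), while 1071 measured genes were higher and 1570 lower. As deposited, Cst3 (-0.93), Ctsz (-0.68), Ctsb (-0.41) and Ctsd (-0.37) were lower in PTX than in LPS by their brightest probe set, and Ctsc (0.63) was higher. Ctsb and Ctsd turned to 0.03 and 0.01 with quantile normalization. Ctsh (-0.06), Ctsk (-0.04), Ctss (-0.04) and Ctsl (0.02) differed by less than 0.1 as deposited. With median centring these were -0.40, -0.38, -0.37 and -0.32, and with quantile normalization 0.26, -0.17, 0.39 and 0.42, so which stimulus reads higher depends on the scaling for Ctsh, Ctss and Ctsl. Over all 20 probe sets 7 were at least 2-fold higher in PTX than in LPS: 3 of Ctsb, 2 of Ctsc, the dimmer one of Ctsl and that of Lgmn. Of all measured probe sets, 17.3% were at least 2-fold higher in PTX than in LPS.

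The LPS difference varied with the level of a gene on these arrays. When all measured genes were placed in 20 bins by mean level, the median LPS difference from PBS was -0.14 in the third bin and 0.32 in the brightest, and 50% of the genes of the brightest bin lay between 0.02 and 0.62. Below the third bin genes could have a mean under the measured level and pass through 1 array where they were high, so the median of -0.83 in the dimmest bin is shaped by that filter. Of the 10 genes 8 were in the brightest bin, 5 of them above 0.62 (Ctsb, Ctsd, Ctsh, Ctsz and Cst3) and 1 below 0.02 (Ctsc). The PTX difference from PBS had a median of 0.02 in the third and 0.06 in the brightest bin, whose middle genes lay between -0.10 and 0.28. There 7 of the 8 lay above 0.28 and Ctsc did not, and in the bin below, Lgmn lay above the upper bound of 0.31. These positions describe the arrays and are not a test.

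**Figure D3:**
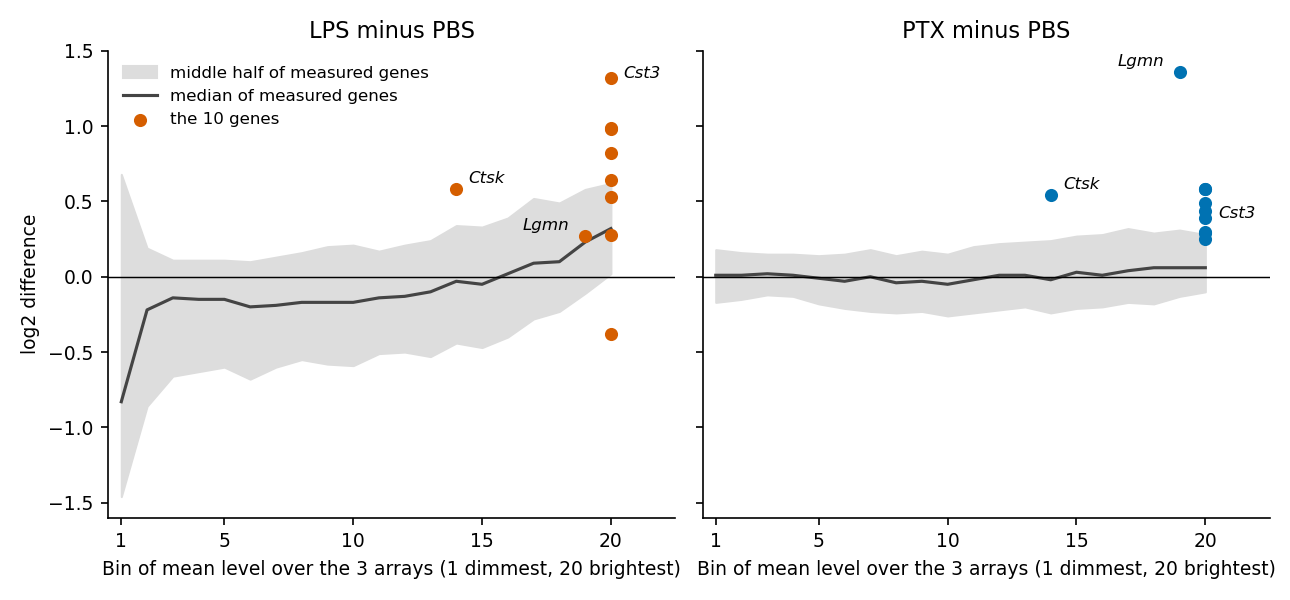
The log2 difference from PBS in LPS (left) and PTX (right) against the bin of mean level over the 3 arrays, for all measured genes (line: median, grey: 25th to 75th percentile) and for the 10 genes (points). The LPS median lies at -0.14 in the third and 0.32 in the brightest bin (the bins below are shaped by the filter on low values), and the PTX median stays near 0. Cst3 stands highest in LPS and Lgmn in PTX.

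The scaling decided how many of the genes counted as 2-fold in LPS. With the values as deposited 1 was at least 2-fold higher than in PBS, with trimmed mean scaling 3, with 75th percentile scaling and median centring 4 each (Ctsb, Ctsd, Ctsz and Cst3), and with quantile normalization 0. The median of the 10 was 0.61 as deposited, 0.93 with median centring and 0.32 with quantile normalization, while that of all measured genes was -0.08, 0.27 and 0.11. In PTX against PBS the median of the 10 stayed between 0.40 and 0.52 over all settings, and all 10 genes lay above 0 in each of them.

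**Figure D4:**
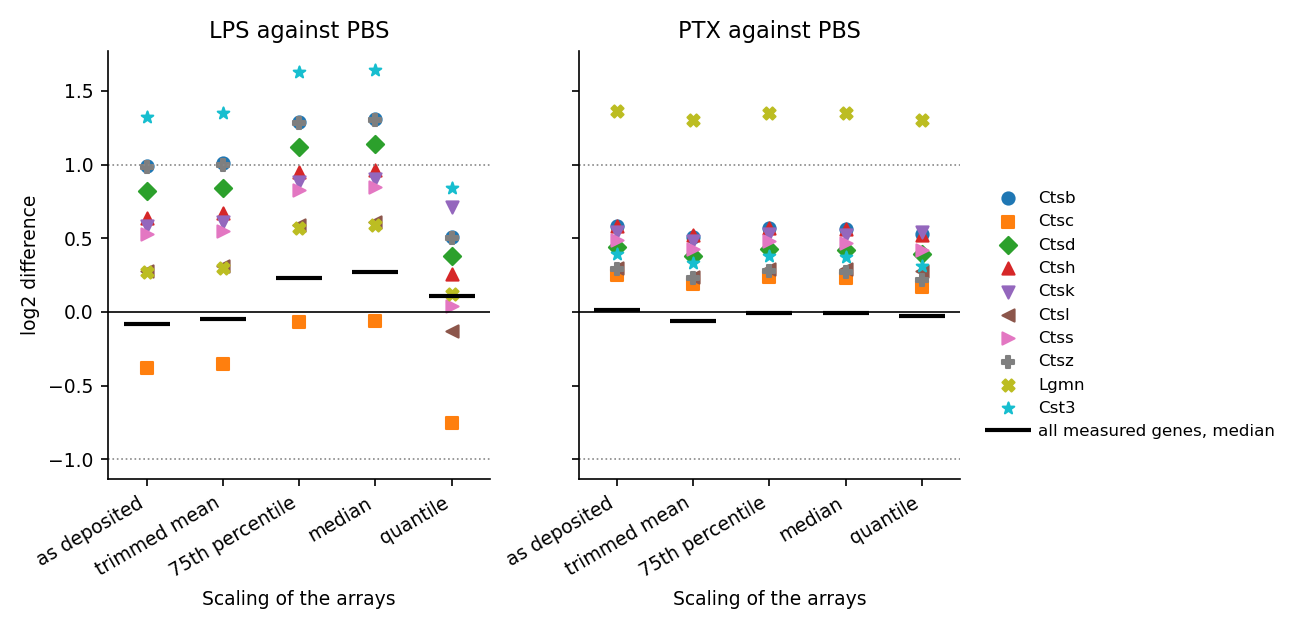
The log2 difference of each of the 10 genes from PBS under 5 scalings of the arrays, for LPS (left) and PTX (right). Black bars are the median of all measured genes and dotted lines mark 2-fold. In LPS the values move with the scaling and Cst3 passes 2-fold in all but quantile normalization, whereas in PTX Lgmn passes it in all 5.

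The other cathepsins were dimmer or not measured. Of 14 such genes 5 were measured, and the granule protease Ctsg, Ctsw of cytotoxic lymphocytes and most of the placental cathepsins stayed under the measured level, at 55.8 or less. The carboxypeptidase Ctsa, also known as protective protein, read 4543 with PTX, 3100 with LPS and 3494 with PBS, and Ctso read 1375, 1014 and 822. Of these 5, none was at least 2-fold higher than in PBS under either stimulus. Ctse gave -0.58 in PTX and -0.42 in LPS by its brightest probe set, and 0.93 and -1.13 by its other. The placental cathepsin Ctsq was at least 2-fold lower in LPS (-1.99, or 0.25 of its PBS level on the log2(intensity + 16) scale), with its LPS reading of 17.8 far under the measured level. The median of the 5 was 0.24 in PTX and -0.17 in LPS.

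Inhibitors of cysteine cathepsins other than cystatin C differed more. Of 15 symbols 9 had a probe set and 7 were measured. By brightest probe sets 2 of the 7 were at least 2-fold higher and 1 lower in LPS against PBS, and 1 higher and 2 lower in PTX against PBS. Of all measured genes 6.50% were higher and 13.0% lower in LPS, and 3.04% and 2.37% in PTX. Ctla2b, a homologue of a cathepsin propeptide that mouse studies describe as a cathepsin inhibitor, read 276 with PTX, 2064 with LPS and 83.2 with PBS (1.56 in PTX and 4.39 in LPS). Its near-identical relative Ctla2a, whose probes may share its signal, read 155, 534 and 287. The intracellular stefin B read 9368, 14310 and 8573 on the PTX, LPS and PBS arrays for Cstb (0.13 and 0.74). Leukocystatin, an endolysosomal cystatin of immune cells, was higher in LPS alone, with Cst7 at 127, 278 and 111 (0.17 and 1.21). Stfa2l1, a stefin, was lower under both stimuli, at 124, 190 and 719 (-2.39 and -1.84). Stfa3, another stefin, was lower in PTX (-1.52) and within 2-fold in LPS (0.49), and stefins are near-identical copies whose signals may be mixed.

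The class II route that these proteases serve was mostly within 2-fold by brightest probe sets. Of 11 measured genes none was at least 2-fold higher than in PBS, 2 were lower in LPS and 1 in PTX. Of all measured genes 6.50% were higher and 13.0% lower in LPS, and 3.04% and 2.37% in PTX. The invariant chain gene Cd74 read 7057 with PTX, 10839 with LPS and 6291 with PBS (0.17 and 0.78), and Ifi30, a lysosomal thiol reductase that opens disulfide bonds of antigens, differed by 0.45 in PTX and 0.28 in LPS. Those lower in LPS were H2-DMa (-1.09), a subunit of the molecule that exchanges class II peptides, and H2-Ob (-1.04), a subunit of its inhibitor. H2-Ob was the one lower in PTX (-2.07), with readings of 7.41, 31.7 and 82.1 on the PTX, LPS and PBS arrays that stood near or under the measured level. The dimmest H2-Aa probe set read 1653 with PTX, 216 with LPS and 1324 with PBS (-2.53 in LPS), unlike the brightest (0.45). A dimmer H2-DMb2 probe set was at least 2-fold lower in PTX (-1.09), where the brightest gave -0.75.

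Among 6 other lysosomal peptidases none was 2-fold apart from PBS by its brightest probe set, but dimmer probe sets of Scpep1 (1.33), Napsa (-1.57) and Prcp (-2.66) were in LPS. The LPS readings of these Napsa (77.7) and Prcp (9.8) probe sets stood under the measured level. The median of the brightest was 0.35 in PTX and -0.30 in LPS, with the tripeptidyl peptidase gene Tpp1 at 0.53 and 0.32 (0.59 and -0.85 by its other probe set) and the dipeptidase gene Cpq at 0.61 and -0.79. Of 15 genes of lysosomal sorting, membrane and biogenesis 1 was at least 2-fold higher in PTX and 2 in LPS by brightest probe set. None was lower by that reading. Of all measured genes 6.50% were higher and 13.0% lower in LPS, and 3.04% and 2.37% in PTX. In LPS dimmer probe sets of Mitf (-2.12) and Mcoln1 (-1.54) were at least 2-fold lower, with LPS readings of 66.4 and 72.2 under the measured level. That of M6pr (1.42) was higher. Igf2r, the large mannose 6-phosphate receptor that carries cathepsins to endosomes, read 849 with PTX, 992 with LPS and 384 with PBS (1.11 and 1.33), and its other probe set gave 1.31 in PTX and 0.51 in LPS. Gnptab, of the enzyme that starts the mannose 6-phosphate tag, differed by 1.02 in LPS and 0.24 in PTX. Psap (0.18 in PTX and 0.30 in LPS), Lamp1 (0.38 and 0.59) and the lysosomal gene regulator Tfeb (0.13 and -0.54) were within 2-fold.

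Endosomal Toll-like receptors are cut by cathepsins and legumain before they signal. Of 4 measured genes of this group 3 were at least 2-fold higher in PTX than in PBS and none in LPS. Of all measured genes 3.04% were higher in PTX and 6.50% in LPS. Tlr3 read 533 with PTX, 220 with LPS and 117 with PBS (2.05 and 0.83). Tlr7 differed by 1.11 and 0.42 by its brightest probe set, and by 0.36 in PTX by each of its other two. Unc93b1, the escort of these receptors to endosomes, differed by 1.04 and 0.30, and Tlr9 by -0.11 and 0.02.

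**Figure D5:**
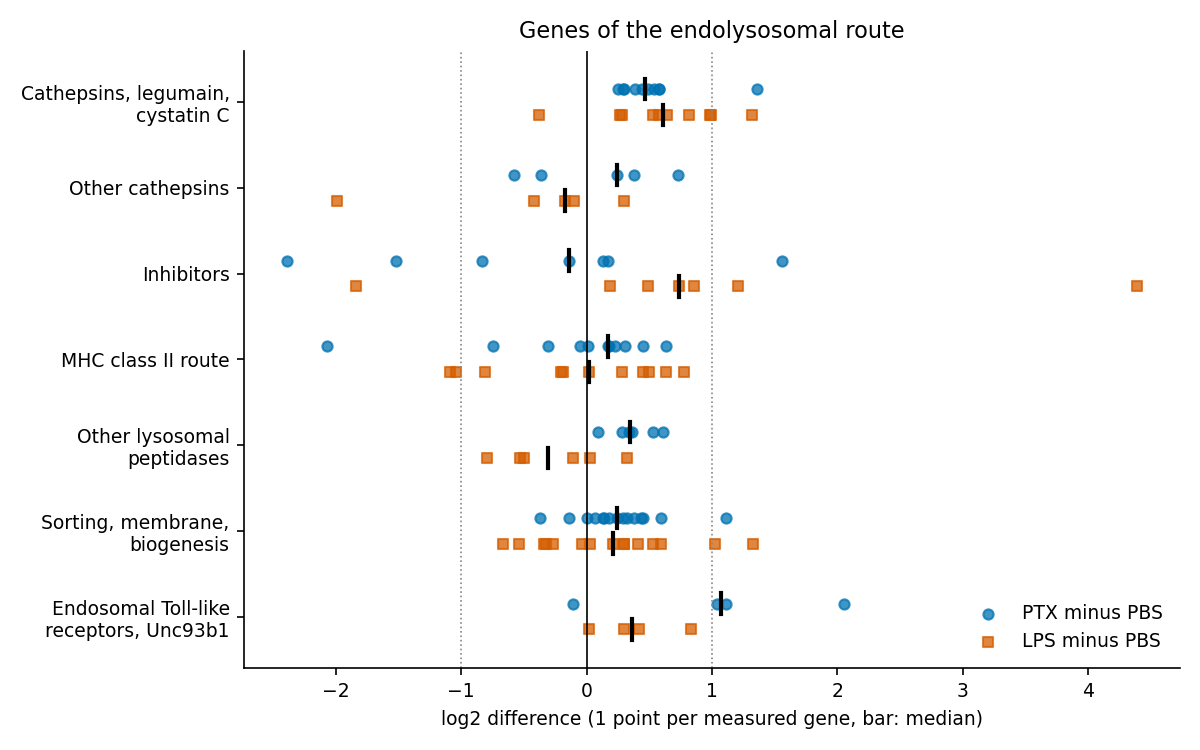
The log2 difference from PBS of each measured gene of the endolysosomal route, 1 point per gene, PTX (circles) above LPS (squares) in each group, with a bar at the median and dotted lines at 2-fold. The 10 genes have medians of 0.47 in PTX and 0.61 in LPS, and the inhibitors are the most widely spread group.

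Markers of the cells a marrow culture can hold moved as well. In bulk RNA more cells of a type and more RNA per cell cannot be told apart. Of 9 dendritic cell markers 8 were measured, with a summed intensity of 23585 with PTX, 31004 with LPS and 21993 with PBS, and Cd209a was not. Most of this sum came from Cd74, H2-Aa and H2-Ab1, which also belong to the class II route. Flt3 was at least 2-fold higher under both stimuli (1.78 in PTX and 1.33 in LPS) and Batf3 in LPS (0.04 and 1.13). Itgax (-0.87 and -0.49) and, by its brightest probe set, Zbtb46 (-0.41 and -0.30) were below PBS. Other measured probe sets of Zbtb46 gave 0.12 and 0.15 in PTX, and -1.35 and -0.12 in LPS. Of 11 macrophage and monocyte markers 9 were measured, with sums of 42665, 46394 and 28074 in the same order. By brightest probe sets 2 of the 9 were at least 2-fold higher than PBS in PTX (Fcgr1 2.79, Mertk 1.78). In LPS 3 were (Fcgr1 2.73, Adgre1 1.40, Cd68 1.17). Of all measured genes 3.04% were at least 2-fold higher in PTX and 6.50% in LPS. C1qa, C1qb and C1qc were above PBS in PTX (0.89, 0.74 and 0.99) and below it in LPS (-0.65, -0.63 and -0.72). Dimmer C1qb probe sets gave -1.09 and -1.30 in LPS. The other measured macrophage markers lay above PBS in LPS by brightest probe set. Cathepsins are abundant in macrophages, and the part of such cells in the cathepsin differences was not tested.

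Osteoclasts, which are rich in cathepsin K, were examined beside Ctsk. Of 7 osteoclast markers 4 were measured, and Calcr, Oscar and Ocstamp stayed under the measured level on all arrays, at 60.5 or less. Acp5, an acid phosphatase of osteoclasts and macrophages, read 2089 with PTX, 6597 with LPS and 849 with PBS, whereas the fusion gene Dcstamp read 398, 286 and 916. By brightest probe set Nfatc1 differed from PBS by 0.50 in PTX and -0.78 in LPS, and Mmp9 by -0.50 and 0.09. Other measured probe sets of Nfatc1 gave -1.12, -1.42 and 0.28 in LPS. The 3 measured mast cell and eosinophil markers of 6 summed to 198 with PTX, 1937 with LPS and 268 with PBS, while Epx, Ms4a2 and Fcer1a were not measured. Most of the LPS sum came from Prg2, at 31.4, 1274 and 117 on the PTX, LPS and PBS arrays. Cpa3 read 74.2, 550 and 96.3, and Kit 92.7, 114 and 54.9. Prg2 (3.28) and Cpa3 (2.33) were at least 2-fold higher than PBS in LPS, beside 6.50% of measured genes. In PTX Prg2 was lower (-1.49), beside 2.37% of measured genes. The 6 measured neutrophil markers of 9 summed to 5520, 11998 and 10539, and Mpo and Elane were not measured. Most of this sum came from S100a8 and S100a9, which went opposite ways in LPS against PBS. S100a8 read 4007 with PTX, 9306 with LPS and 6074 with PBS, and S100a9 read 1083, 1924 and 3877. In LPS 1 of the 6 was at least 2-fold higher than in PBS (Camp 1.66) and 2 were lower (Ltf -1.05, and S100a9), beside 6.50% and 13.0% of measured genes. Camp read 37.7, 259 and 70.7 on the PTX, LPS and PBS arrays, and Ltf 78.6, 38.6 and 97.3. Camp thus passed the measured level of 78.9 through the LPS array alone and Ltf through the PBS array alone. In PTX 1 was lower (S100a9 -1.82) and none was higher, beside 2.37% and 3.04% of measured genes. The part of mast cells and neutrophils in the values of Ctsc, which activates their granule proteases, was not tested. By brightest probe sets no B cell marker (of 3 with a probe set) and no erythroid marker (of 2) was measured, although a second probe set of Pax5 read 31.3 with PTX, 101 with LPS and 26.1 with PBS, and of 3 T cell markers only Cd3e was, at 88.2 or less. The 5 cell cycle markers (Mki67, Top2a, Ccnb2, Birc5 and Cdc20) were all at least 2-fold lower than in PBS under both stimuli by brightest probe set. Among measured genes 2.37% were in PTX and 13.0% in LPS.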

How the data were processed

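Gene expression was measured on Affymetrix arrays in 3 samples of mouse bone marrow-derived dendritic cells (PTX, LPS and PBS, 1 array each). Per the labels' protocols, 3 µg of total RNA was made into biotin-labelled cRNA. The deposited values are linear intensities, 1 for each probe set on each array and never below 1. How they were summarized, background-corrected and scaled is not given in the sources used here.

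Intensities were used as deposited, and log2 was taken after adding a pseudocount of 16, which shrinks differences of dim probe sets. By the platform annotation 34958 of 45101 probe sets carry 1 gene symbol, 932 several and 9147 none, and 64 are controls. The brightest probe set by mean log2 value stood for a gene, which was measured if that reached 78.9, the median of all noncontrol values, on at least 1 array. No test was possible with 1 array per group, and the number of arrays limits the precision. The work used Python 3.11.15 and pandas 2.3.3, and the counting steps were tested on simulated data.

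The 10 genes, the lists and the markers were chosen with earlier results of these data known. Named were all 10 genes, measured list members and markers at least 2-fold apart in any comparison by brightest probe set, and some others. Alternatives were pseudocounts of 1 and 64, 4 other scalings, 2 other probe set rules and 2 other filters, 10 in all.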

Additional observations from a re-analysis of the deposited data

How the results depend on the processing

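No paired analysis was possible because each group held 1 array, and no replicate could be left out. Of the 10 genes, only Cst3 (LPS against PBS) and Lgmn (PTX against PBS and against LPS) were 2-fold apart as deposited. Neither changed direction over the 10 alternatives. Both have 1 probe set, so the other probe set rules and filters could not change them. Of the 10 genes, the number passing 2-fold for LPS against PBS was 1 as deposited, 4 with median centring and with 75th percentile scaling, 3 with trimmed mean scaling, 3 with the mean over probe sets (2 higher and 1 lower) and 0 with quantile normalization. In PTX against PBS it was 1, and 2 with the mean over probe sets. In PTX against LPS it was 1 (higher), 2 with median centring and with 75th percentile scaling (both lower in PTX, Cst3 and Ctsz), 2 with trimmed mean scaling (1 higher and 1 lower), 2 without the _x_at, _s_at and _a_at probe sets (both higher) and 3 with the mean over probe sets (all higher), where Ctsb was 1.03 against -0.41 as deposited. The median in LPS against PBS was 0.93 with median centring, 0.91 with 75th percentile scaling and 0.32 with quantile normalization, against 0.61 as deposited. In PTX against LPS it was -0.39, -0.37 and 0.14 under these settings, against -0.05. The median in PTX against PBS moved by less than 0.1 throughout. Of the 100 values of single genes in PTX against PBS 99 kept their direction and side of 2-fold, the exception being Ctsb with the mean over probe sets. In LPS against PBS 86 of 100 did and in PTX against LPS 83 of 100. Part of this was fixed in advance, since the 2 other filters could not change the value of any of the 10 genes. The 2 other probe set rules could not change the 5 genes with 1 probe set. Of all measured genes 799 were at least 2-fold higher and 1601 lower in LPS against PBS as deposited, 1445 and 1046 with median centring, and 1365 were higher with 75th percentile scaling. A pseudocount of 64 gave 1019 lower and the filter at the 75th percentile 775. In PTX against LPS 1681 were higher and 766 lower as deposited, 1071 and 1570 with median centring, 1449 lower with 75th percentile scaling, 1101 higher with a pseudocount of 64 and 883 higher with the filter at the 75th percentile. By construction, median centring raises the whole LPS array, whose median was lowest, and quantile normalization lowers its brightest values.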
